A study of Mus musculus with 20 samples.

Results

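The 48 genes described here encode enzymes that write or erase methyl and acetyl groups on histones: 24 histone methyltransferases and subunits of their catalytic cores, 17 histone demethylases and 7 histone acetyltransferases. They were chosen by name, and each of the 48 had a row among the 29671 genes of the deposited count table. All 48 passed the filter on low counts that left 16727 genes to test. Their transcripts were measured in the amygdala, the forebrain region best known for fear learning.

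Histone marks are set and removed by enzymes with sharp site preferences. Methylation of histone H3 at lysine 4 by KMT2A to KMT2D and the SETD1 enzymes marks promoters and enhancers in use. Methylation at lysine 9 and lysine 27 by EHMT2 and the Polycomb repressive complex (PRC2) marks silenced chromatin. Acetylation by CREBBP, EP300 and the KAT enzymes opens chromatin. Demethylases of the flavin-dependent class (KDM1A, KDM1B) and of the larger Jumonji (JmjC) class take the methyl groups off. In neurons several of these enzymes are known for roles in memory and in responses to experience, and mutations in many of their human counterparts cause intellectual disability.

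Both amygdalae were punched from the brains of 20 male C57B6 mice aged 84 days, 5 in each of 4 groups and none of them used in behavioural tests, and their RNA was sequenced. F2 stress mice were the second generation and F1 stress mice the first generation of a lineage that began with animals put through chronic unpredictable stress, in adolescence per the study's title. F2 no-stress and F1 no-stress mice were the same generations of a lineage that began without it, so none of the 20 mice is described as stressed itself. The labels do not give the sire, litter or batch of a mouse, so littermates within a group may be less independent than n = 5 implies. Punches are mixtures of cell types, in which fewer cells of a type and less RNA per cell cannot be told apart.

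Library totals lay between 13654890 and 13714805 counts, a range so narrow that the counts must have been equalised before deposit, in a way the labels leave out. Values below are CPM, counts scaled to a common library size with TMM factors, and differences are log2 fold changes ± SE from 1 edgeR quasi-likelihood fit over all 20 libraries, with calls where the Benjamini-Hochberg adjusted p over all genes tested was below 0.05. The SE is not an output of that fit but the absolute log2 fold change divided by the square root of its F statistic. Each library also had its own trend with the GC content of genes, measured without the 48 enzymes as the median log2 deviation of the decile of genes richest in GC minus that of the poorest decile. This trend averaged -0.19 ± 0.26 in F2 stress and 0.34 ± 0.27 in F2 no-stress libraries (SD over 5 libraries; exact two-sided permutation test over 252 arrangements, p = 0.0159, where the smallest possible is 0.00794; p = 0.0476 adjusted over 3 comparisons). In F1 it was -0.070 ± 0.14 in stress and -0.069 ± 0.23 in no-stress libraries (exact permutation test, p = 1). In F2 stress replicate 15 (0.21) the trend went against that of its group, as it did in F2 no-stress replicate 20 (-0.10). Marker genes of the neighbouring striatum and of the pallial and basolateral amygdala were uneven between punches: F2 stress replicate 14 had the lowest summed striatal markers of the 20 libraries (312 CPM) and F2 no-stress replicate 20 the lowest summed pallial markers (124 CPM). Results that change when libraries are left out are given with those values.

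Per kilobase of the longest transcript, Ehmt2 (the H3K9 methyltransferase G9a) was the most abundant of the 48 messages, at 33.5 CPM per kb over the 20 libraries. The arginine methyltransferases Prmt1 (27.9) and Prmt5 (22.1), the H3K4 monomethyltransferase Setd7 (26.9), the flavin demethylase Kdm1a (21.0) and the acetyltransferase Kat2a (18.8) followed. At the low end stood the H3K9 methyltransferases Suv39h2 (1.09) and Setdb2 (1.75) and the PRC2 catalytic subunit Ezh2 (1.68). Its paralog Ezh1, the PRC2 catalytic subunit that predominates in non-dividing cells, stood at 16.3 CPM per kb. In every group the Ezh1 level per kb exceeded the Ezh2 level, with 16.1 and 1.62 CPM per kb in the F2 stress mice and 15.6 and 1.96 in the F2 no-stress mice. The members of the KMT2 family spanned Kmt2e (14.9) and Kmt2a (14.7) at the upper end to Kmt2d (4.74) at the lower.

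The enzymes that were lower in F2 stress mice shared a GC-rich transcript. Some of them have a close paralog whose transcript holds less GC, such as Kmt2b (59.1%) and Kmt2a (50.6%). The pairs shown here are Kmt2d 58.4% and Kmt2c 47.6%, Kdm6b 59.6% and Kdm6a 42.5%, and Ehmt2 60.8% and Ehmt1 51.2%. The last 60 codons of 3 such pairs are shown from the GRCm38 genome with the GENCODE M21 annotation. G or C at the third base of a codon is in capitals. The ends were counted back from the stop codon and not aligned, so the counts of a pair do not compare matched codons. The 3 pairs were chosen for illustration after the calls were seen. Other paralogs also differed in GC content with neither called, such as Kat2a (57.4%) and Kat2b (46.6%), and Kdm4b (58.7%) and Kdm4c (43.7%). In each of the 3 pairs shown the first gene was called lower in F2 stress mice and the second was not called. The coding ends lie at chr15:98834500-98834802 (minus strand) and chr5:25273666-25275714 (minus strand), at chr11:69399826-69400095 (minus strand) and chrX:18277466-18278707 (plus strand), and at chr17:34913641-34913820 (plus strand) and chr2:24791950-24792129 (minus strand). The first 4 of these intervals span 2 exons with an intron between them, of which only the coding bases are printed.
Kmt2d: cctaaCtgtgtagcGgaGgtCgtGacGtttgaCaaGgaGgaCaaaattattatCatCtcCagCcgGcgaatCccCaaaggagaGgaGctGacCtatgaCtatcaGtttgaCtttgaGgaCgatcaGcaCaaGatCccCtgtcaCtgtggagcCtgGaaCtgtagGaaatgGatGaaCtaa
Kmt2c: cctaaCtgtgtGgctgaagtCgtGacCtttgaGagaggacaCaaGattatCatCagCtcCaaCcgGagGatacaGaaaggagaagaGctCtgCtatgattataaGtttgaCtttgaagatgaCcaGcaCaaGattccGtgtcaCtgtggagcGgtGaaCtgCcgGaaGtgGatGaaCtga
Kdm6b: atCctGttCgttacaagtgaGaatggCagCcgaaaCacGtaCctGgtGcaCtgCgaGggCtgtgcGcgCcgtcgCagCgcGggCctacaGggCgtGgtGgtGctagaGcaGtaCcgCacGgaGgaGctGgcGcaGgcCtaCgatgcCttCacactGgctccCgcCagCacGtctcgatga
Kdm6a: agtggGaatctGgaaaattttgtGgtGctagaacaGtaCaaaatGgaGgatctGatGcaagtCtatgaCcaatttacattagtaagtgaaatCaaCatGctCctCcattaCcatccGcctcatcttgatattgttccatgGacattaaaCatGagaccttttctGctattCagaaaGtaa
Ehmt2: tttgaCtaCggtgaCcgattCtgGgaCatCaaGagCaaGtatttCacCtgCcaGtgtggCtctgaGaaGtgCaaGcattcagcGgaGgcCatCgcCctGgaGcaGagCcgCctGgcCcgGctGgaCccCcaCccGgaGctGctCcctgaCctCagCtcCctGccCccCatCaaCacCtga
Ehmt1: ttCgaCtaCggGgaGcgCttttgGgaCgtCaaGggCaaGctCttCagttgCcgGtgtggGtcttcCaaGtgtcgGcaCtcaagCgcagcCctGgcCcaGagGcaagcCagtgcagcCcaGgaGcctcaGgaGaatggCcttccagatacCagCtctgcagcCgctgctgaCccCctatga

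In the stretches shown, 39 of 60 Kmt2d codons and 36 of 60 Kmt2c codons ended in G or C. The counts were 45 for Kdm6b and 25 for Kdm6a, and 50 for Ehmt2 and 39 for Ehmt1. Over the whole coding sequence the share of codons ending in G or C was 59.9% in Kmt2d and 39.8% in Kmt2c, 63.9% in Kdm6b and 38.4% in Kdm6a, and 71.8% in Ehmt2 and 57.5% in Ehmt1. This share alone did not set the called enzymes apart. Enzymes that were not called had shares as high, such as Prmt1 (75.8%), Kdm4b (71.2%), Kat2a (70.9%), Phf2 (70.6%), Kdm2b (69.7%) and Carm1 (69.5%), while the called Setd1a (54.7%) and Kmt2b (56.5%) lay below Ehmt1. In the printed ends alone, Ehmt2 and Ehmt1 had the same overall GC content (61.7%), and Kmt2d (48.3%) and Kmt2c (47.2%) were close.

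Of the 48 enzymes, 7 were lower and 1 was higher in F2 stress than in F2 no-stress mice. The 7 were the H3K4 methyltransferases Kmt2d, Kmt2b, Setd1b and Setd1a, the H3K9 methyltransferase Ehmt2, the H3K79 methyltransferase Dot1l and the H3K27 demethylase Kdm6b. The 1 that was higher was Suz12, a core subunit of PRC2. The 7 make 14.6% of the enzymes, where 5.28% of all genes tested were called lower, and the 1 makes 2.08%, where 2.64% of all genes were called higher (7.92% in either direction). The median log2 fold change of the 48 enzymes was -0.0089, with 25 of 48 below 0, and that of all genes was 0.0013, with 49.8% below 0. When the trends of the libraries with GC content and transcript length entered the fit as an offset, 0 of the 48 enzymes were called, with 9 of them at an unadjusted p below 0.05, and 0.0479% of all genes were called, 0.0120% lower.

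The call count also rested on single libraries. It was 0 without F2 stress replicate 11, 4 without F2 stress replicate 12, 5 without F2 stress replicate 13, 2 without F2 no-stress replicate 16 and 3 without F2 no-stress replicate 17. It was 13 without F2 stress replicate 15. Without F2 stress replicate 11 the adjusted p of the 8 enzymes lay between 0.0521 for Dot1l and Kdm6b and 0.108 for Setd1a. Dot1l and Kdm6b were called without each of the other 9 F2 libraries. With F2 stress replicate 14 removed together with F2 no-stress replicate 20 the count was 11, with 10 lower and 1 higher. Over all genes 2213 were called there, against 1324 with all 20 libraries. In a fit of the 10 F2 libraries alone 0 enzymes and 0 of all genes were called, with 12 enzymes at an unadjusted p below 0.05. With all 20 libraries 31.25% of the enzymes and 25.6% of all genes stood below that p.

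**Figure D1:**
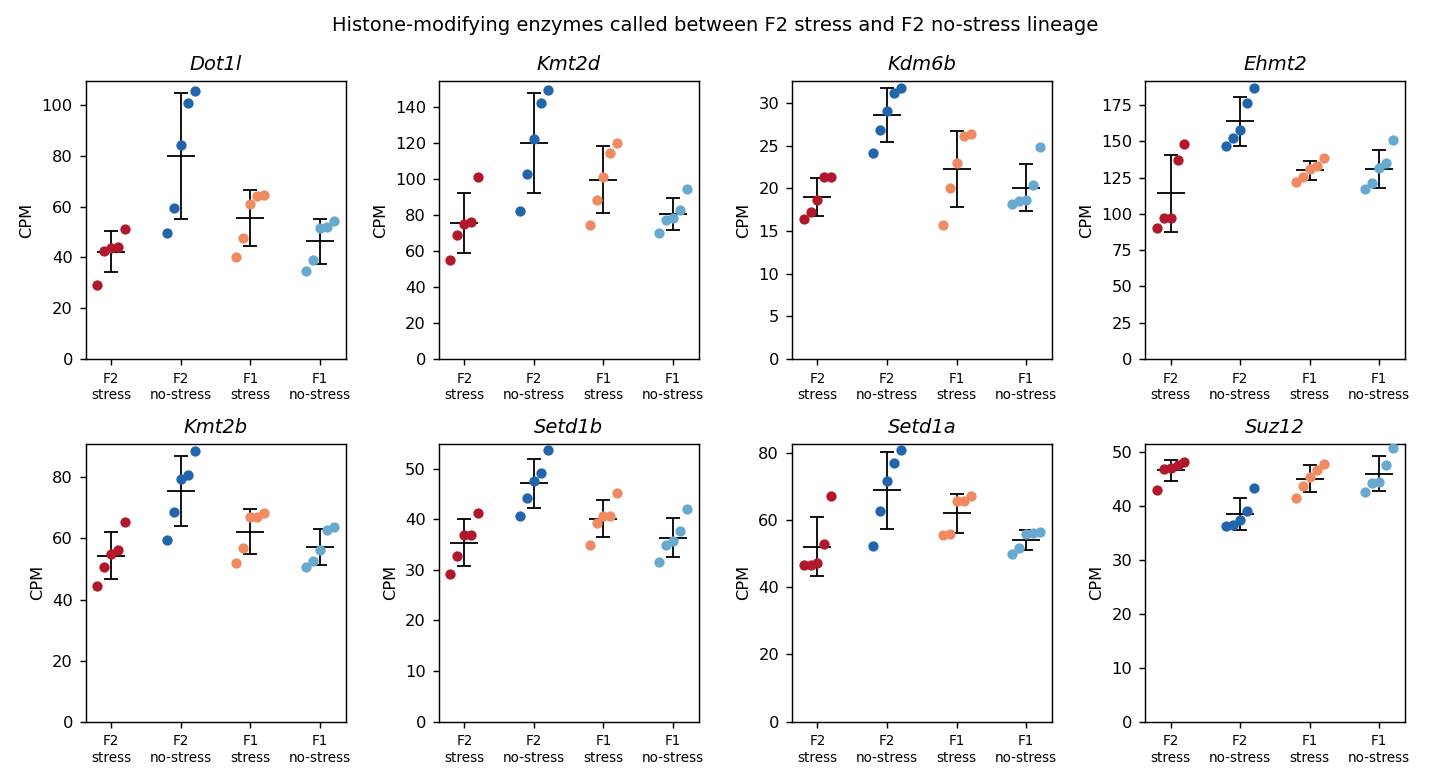
CPM of the 8 enzymes called between F2 stress and F2 no-stress mice, 1 panel per gene, with 1 point per mouse and the mean ± SD of 5 mice for F2 stress, F2 no-stress, F1 stress and F1 no-stress. In 7 panels the F2 no-stress mice have the highest mean of the 4 groups, and in the Suz12 panel they have the lowest.

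The enzymes grouped as H3K4 methyltransferases held 4 of the 7 lower enzymes. Kmt2d had 55.2, 75.1, 76.4, 101.3 and 69.2 CPM in the F2 stress mice, against 122, 142, 82.4, 103 and 149.8 CPM in the F2 no-stress mice. F2 stress replicate 14 lay above F2 no-stress replicate 18, with the other libraries apart, and the difference was -0.67 ± 0.17 (adjusted p = 0.0212). Kmt2d (chr15:98831669-98871204, minus strand) encodes an enhancer-bound H3K4 methyltransferase whose human gene is mutated in Kabuki syndrome. Kmt2b had 44.5, 50.8, 54.9, 65.4 and 56.2 CPM in the F2 stress mice, against 80.9, 88.8, 59.4, 68.8 and 79.4 CPM in the F2 no-stress mice. Only F2 stress replicate 14 lay above the lowest F2 no-stress library, and the difference was -0.47 ± 0.12 (adjusted p = 0.0195). Kmt2b (chr7:30568858-30588726, minus strand) acts at promoters and is needed for memory formation in the mouse forebrain.

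Setd1a and Setd1b encode the catalytic subunits of the SET1 complexes, which place H3K4 trimethylation at active promoters. Setd1b had 29.1, 36.9, 32.8, 41.2 and 36.9 CPM in the F2 stress mice, against 53.7, 47.5, 49.2, 40.7 and 44.3 CPM in the F2 no-stress mice. The ranges overlapped, with F2 stress replicate 14 just above F2 no-stress replicate 19 and the other libraries apart, and the difference was -0.41 ± 0.10 (adjusted p = 0.0192). Setd1a had 47.2, 46.5, 52.8, 67.1 and 46.6 CPM in the F2 stress mice, against 71.5, 77.0, 52.2, 62.5 and 80.8 CPM in the F2 no-stress mice. F2 stress replicates 13 and 14 lay within the F2 no-stress range, and the difference was -0.40 ± 0.11 (adjusted p = 0.0358). Setd1b lies at chr5:123142193-123168629, plus strand, and Setd1a at chr7:127776670-127800122, plus strand. Setd1a shares 51.8% of its exon bases with an annotated same-strand transcript, Gm49388, that has no row in the count table, so how reads of the shared bases were assigned is not known. The other 4 members of the group were not called: Kmt2a, Kmt2c, Kmt2e and Setd7 had differences of -0.16, -0.10, 0.01 and 0.02.

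Among the H3K9 methyltransferases, Ehmt2 was called and the other 5 were not. Ehmt2 had 90.5, 97.5, 97.5, 138 and 148 CPM in the F2 stress mice, against 187, 176, 152, 158 and 147 CPM in the F2 no-stress mice. F2 stress replicate 15 lay just above the lowest F2 no-stress library, and the difference was -0.52 ± 0.12 (adjusted p = 0.0155). Ehmt2 (chr17:34898469-34914052, plus strand) encodes G9a, which forms a heterodimer with the product of Ehmt1 and places H3K9 mono- and dimethylation in euchromatin. Ehmt1 had a difference of -0.10 ± 0.07 (adjusted p = 0.406). Suv39h2 had 5.78, 5.21, 5.52, 4.79 and 4.61 CPM in the F2 stress mice, against 4.32, 4.22, 3.84, 4.47 and 4.18 CPM in the F2 no-stress mice. The lowest F2 stress library lay above the highest F2 no-stress library, so the groups did not overlap, yet the difference of 0.30 ± 0.12 missed the threshold (adjusted p = 0.132). Suv39h2 and its X-linked paralog Suv39h1, with a difference of 0.33 ± 0.13 (adjusted p = 0.117), encode the enzymes that trimethylate H3K9 in heterochromatin. Annotated opposite-strand exons cover 8.10% of the exon bases of Suv39h2 (Dclre1c) and 14.6% of those of Suv39h1 (Gm14820). Setdb1, which silences retroelements, and Setdb2 had differences of -0.09 ± 0.11 and 0.01 ± 0.19.

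Of the 4 core subunits of PRC2, Suz12 was called. Suz12 had 46.9, 47.7, 47.1, 48.1 and 43.0 CPM in the F2 stress mice, against 36.3, 36.4, 39.2, 37.4 and 43.3 CPM in the F2 no-stress mice. The highest F2 no-stress library, replicate 20, lay just above the lowest F2 stress library, replicate 15, with the other libraries apart, and the difference was 0.27 ± 0.07 (adjusted p = 0.0215). Suz12 (chr11:79993106-80034123, plus strand) encodes the subunit that holds the PRC2 core together and is required for its activity. The catalytic subunits Ezh1 and Ezh2 had differences of 0.05 ± 0.06 and -0.28 ± 0.19, and Eed, which reads H3K27 trimethylation, had 0.10 ± 0.13. None of these 3 passed the test, and Ezh2 was counted at a mean of 4.50 ± 0.843 CPM in the F2 stress mice and 5.48 ± 1.87 CPM in the F2 no-stress mice (SD, n = 5 each).

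Dot1l had the largest difference of the 48 enzymes in F2. Dot1l had 29.2, 42.6, 44.1, 51.4 and 43.9 CPM in the F2 stress mice, against 84.4, 100.7, 49.7, 59.4 and 106 CPM in the F2 no-stress mice. F2 stress replicate 14 lay above F2 no-stress replicate 18, and the difference was -0.92 ± 0.20 (adjusted p = 0.0136). Dot1l (chr10:80755206-80795461, plus strand) encodes the enzyme known to methylate H3K79, which has no SET domain and accompanies transcription elongation. It also varied most between mice of a group, with a within-group coefficient of variation of 22.8% over the 4 groups, next to Kdm4b (22.5%) and Ezh2 (22.4%) and against 5.18% for Ezh1. The H3K36 methyltransferases Setd2 and Nsd1 had differences of 0.07 and 0.07 and were not called.

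The arginine methyltransferases Prmt1, Prmt5 and Carm1 were not called, with 0.02 ± 0.10 for Prmt1 and 0.004 ± 0.07 for Prmt5. Carm1 had 44.8, 44.3, 41.0, 47.2 and 49.7 CPM in the F2 stress mice, against 55.3, 59.3, 48.8, 50.7 and 49.8 CPM in the F2 no-stress mice. The ranges met where F2 stress replicate 15 exceeded F2 no-stress replicate 18, and the difference was -0.22 ± 0.07 (adjusted p = 0.0680), which turned to 0.10 with the GC and length offset. Carm1 encodes a methyltransferase of H3 arginines and of transcriptional coactivators. Its annotated exons overlap the opposite-strand gene Yipf2 over 21.1% of their bases, and whether the counting used strand is not given in the sources used here.

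Of the 17 demethylases, Kdm6b was called. Kdm6b had 17.2, 21.3, 18.6, 21.3 and 16.5 CPM in the F2 stress mice, against 26.8, 31.8, 24.1, 31.2 and 29.1 CPM in the F2 no-stress mice. All 5 F2 stress libraries lay below all 5 F2 no-stress libraries, and the difference was -0.59 ± 0.13 (adjusted p = 0.0136). Kdm6b (chr11:69398508-69413675, minus strand), also known as Jmjd3, encodes an inducible JmjC demethylase of H3K27, the mark that PRC2 places. The groups failed to overlap for 2.36% of all genes in the lower direction and 2.25% in the higher, and among the 48 enzymes for Kdm6b in the lower and Suv39h2 in the higher direction, 2.08% each. The X-linked paralog Kdm6a had a difference of -0.004 ± 0.10.

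The other 14 JmjC demethylases had differences between -0.57 and 0.19. The lowest was Kdm4b, a demethylase of H3K9 trimethylation, with 40.8, 48.6, 42.4, 43.3 and 71.6 CPM in the F2 stress mice, against 105, 83.8, 67.4, 56.1 and 52.9 CPM in the F2 no-stress mice. The ranges overlapped through F2 stress replicate 15, and the difference of -0.57 ± 0.18 did not pass (adjusted p = 0.0593). The highest was Kdm5a, an H3K4 demethylase, at 0.19 ± 0.08 (adjusted p = 0.128), and its paralogs Kdm5b and the X-linked Kdm5c had 0.06 ± 0.07 and -0.15 ± 0.08. The H3K9 and H3K36 demethylases Kdm4a and Kdm4c had -0.12 ± 0.07 and 0.13 ± 0.08, and the H3K9 demethylases Kdm3a and Kdm3b 0.02 ± 0.14 and -0.10 ± 0.08. The H3K36 demethylases Kdm2a and Kdm2b, which bind CpG islands, had 0.003 ± 0.08 and -0.07 ± 0.12. Of the remaining JmjC enzymes, Phf2 had -0.25 ± 0.10 (adjusted p = 0.122), the X-linked Phf8 had 0.14 ± 0.09 and Kdm7a had 0.09 ± 0.17.

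The flavin demethylases Kdm1a and Kdm1b were not called. Kdm1a had 72.4, 70.6, 70.6, 65.4 and 58.6 CPM in the F2 stress mice, against 57.9, 65.7, 61.3, 62.2 and 59.3 CPM in the F2 no-stress mice. The ranges overlapped, and the difference of 0.14 ± 0.07 did not pass (adjusted p = 0.215). Kdm1a encodes LSD1, the H3K4 demethylase of the CoREST complex. Kdm1b had 0.17 ± 0.11 (adjusted p = 0.328).

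The 7 acetyltransferases, which include the paralogs Crebbp and Ep300, were not called, with differences between -0.20 and 0.08. Kat2a had 56.8, 54.7, 54.1, 62.8 and 64.3 CPM in the F2 stress mice, against 70.9, 74.7, 66.5, 68.7 and 56.2 CPM in the F2 no-stress mice. F2 no-stress replicate 20 lay within the F2 stress range, and the difference was -0.20 ± 0.08 (adjusted p = 0.0981), which turned to 0.11 with the GC and length offset. Kat2a encodes GCN5, the acetyltransferase of the SAGA complex. Its paralog Kat2b had -0.01 ± 0.13. The coactivator genes Crebbp and Ep300 had -0.18 ± 0.10 and -0.03 ± 0.09, Kat6b and Kat6a -0.18 ± 0.09 and 0.08 ± 0.09, and Kat5 0.04 ± 0.09.

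**Figure D2:**
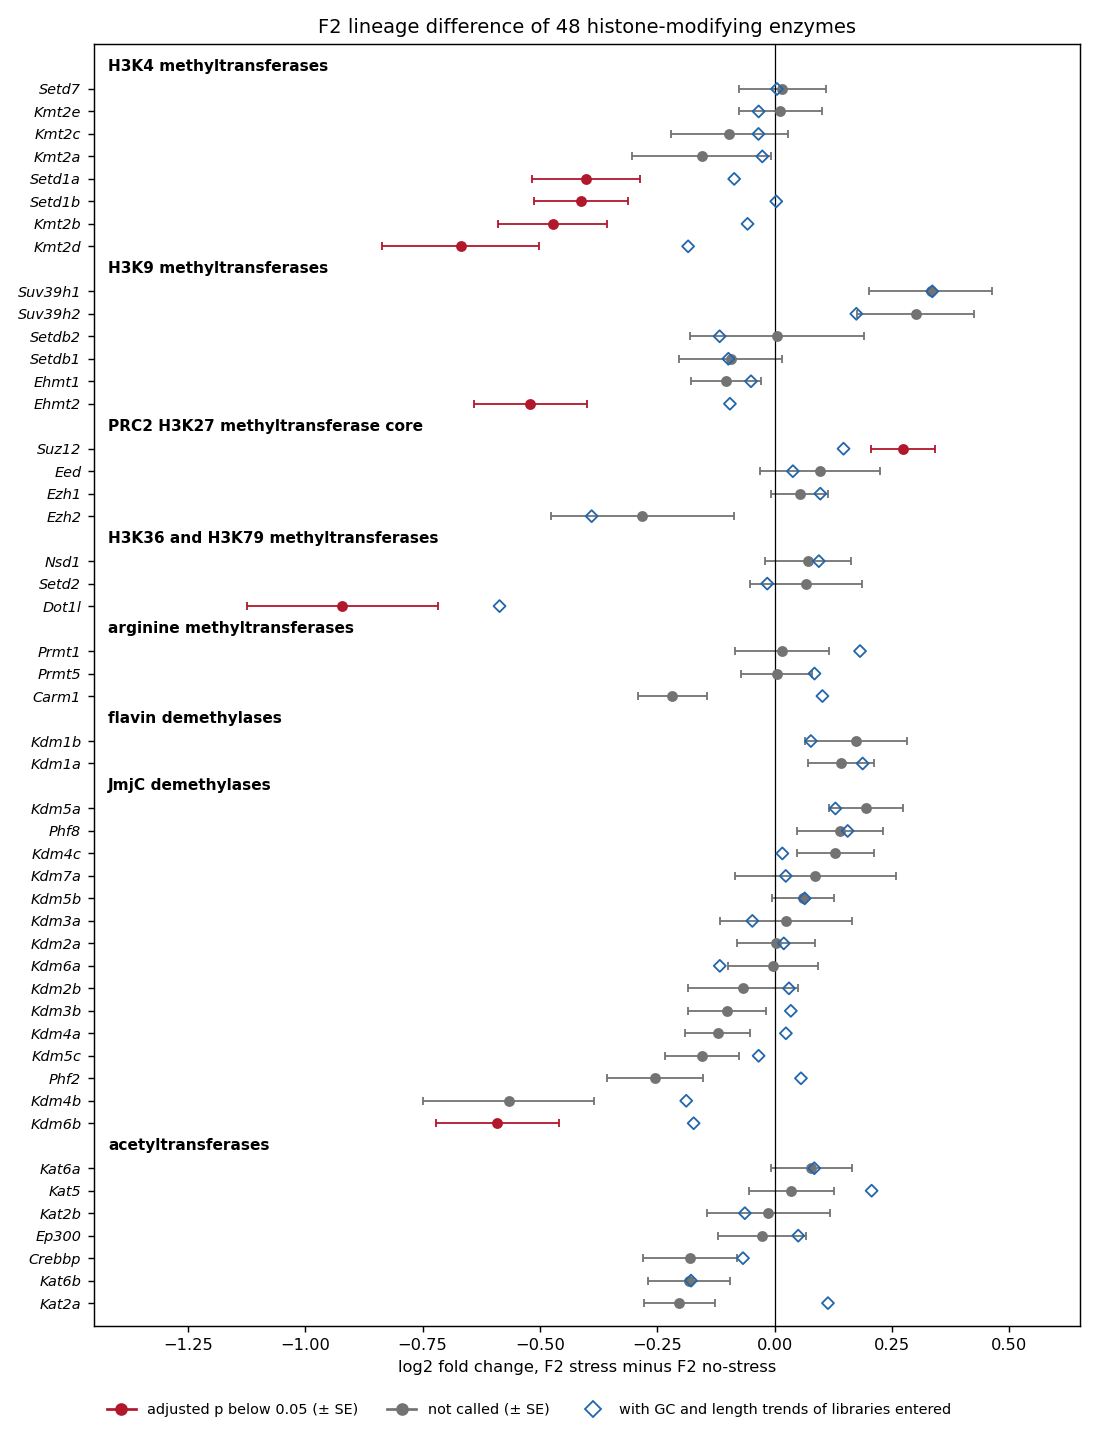
Log2 fold change of all 48 enzymes between F2 stress and F2 no-stress mice, ordered by role, as points ± SE (filled red where called, grey where not), with the value after entering the GC and length trends of the libraries as open diamonds. The 7 enzymes called lower lie between -0.92 and -0.40 as points, and between -0.59 and 0.003 as diamonds.

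The called enzymes divided by the GC content of their transcripts. All 7 lower enzymes had a longest transcript of 57.0 to 60.8% GC, and Suz12 had 41.6%. Of the 48 enzymes, 11 had a GC content of 55% or more, and all 11 had a negative difference, 7 of them called, with a median of -0.47. Among all 3587 genes tested in that range, 88.0% had a negative difference, 19.6% were called lower, and the median was -0.30. Of the 10 enzymes under 45% GC, 2 had a negative difference, 1 was called higher and the median was 0.11, against 23.2% negative, 7.26% called higher and a median of 0.16 among the 4395 genes of that range. Across the 48 enzymes the Spearman correlation of the log2 fold change with GC content was -0.72, and across all genes -0.54, both over points that share the same 10 libraries.

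**Figure D3:**
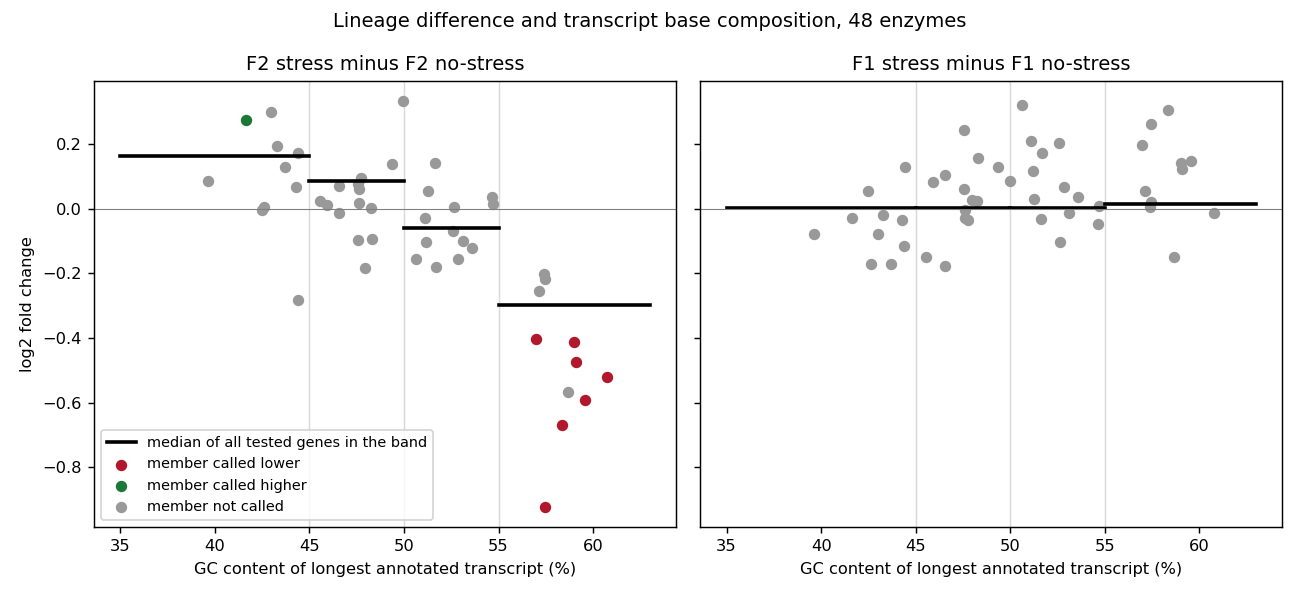
Log2 fold change of the 48 enzymes between stress and no-stress mice against the GC content of the longest transcript (%), with a panel for F2 and a panel for F1. Horizontal lines give the median of all genes tested in bands split at 45, 50 and 55% GC. In F2 the 7 enzymes called lower sit at 57.0 to 60.8% GC and Suz12, called higher, at 41.6%.

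With the GC and length offset the 8 differences became smaller, and the part of the library trends in these results was not tested further. Dot1l kept the largest difference, at -0.59 ± 0.18 (adjusted p = 0.145). Kmt2d stood at -0.18 ± 0.10, Kdm6b at -0.17 ± 0.12, Ehmt2 at -0.10 ± 0.08, Setd1a at -0.09 ± 0.10, Kmt2b at -0.06 ± 0.08 and Setd1b at 0.003 ± 0.06, none called. Suz12 stood at 0.15 ± 0.05 (adjusted p = 0.217). Ezh2, with a transcript of 44.4% GC, had -0.39 ± 0.18 with the offset, and Suv39h1, of 49.97% GC, kept 0.34 ± 0.13, and neither was called with or without it.

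**Figure D4:**
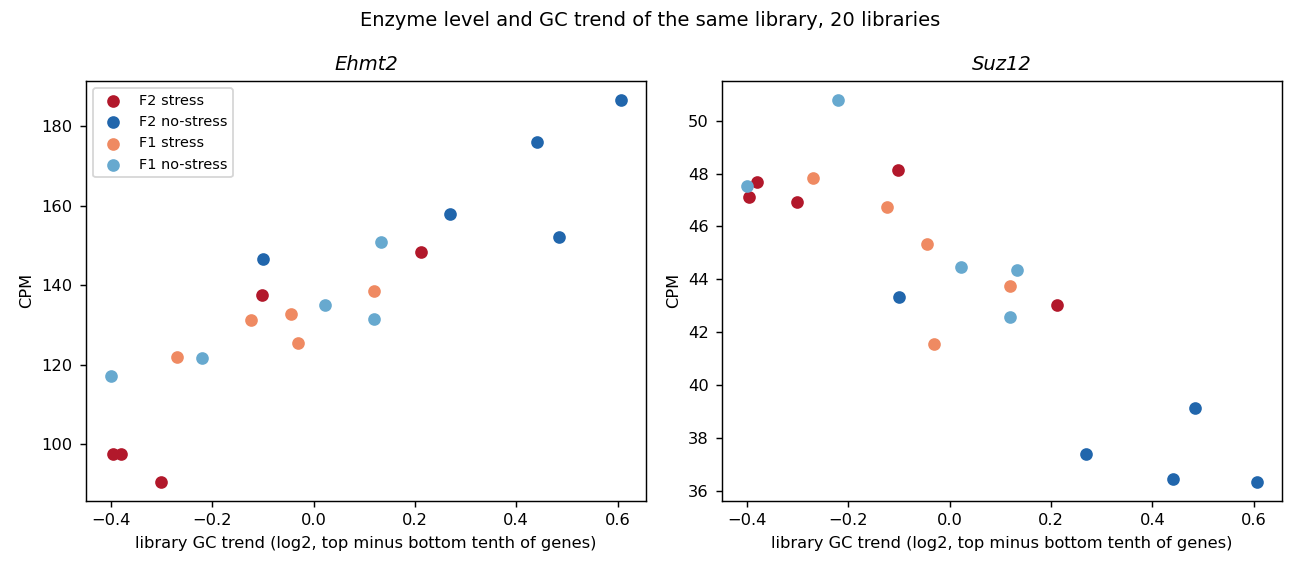
CPM of Ehmt2 and of Suz12 (vertical axis, 1 panel per gene) against the GC trend of the same library (horizontal axis, log2). The trend was measured without the 48 enzymes, and each point is 1 library of the 4 groups. In the Ehmt2 panel F2 no-stress replicates 16 and 17 are high on both axes. F2 no-stress replicate 20 has 147 CPM of Ehmt2 at a trend of -0.10.

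The mean deviation of the 7 enzymes can be set beside the GC trend of each F2 library. The 7 were chosen by their call between the F2 groups, and these groups also differed in the trend. Agreement across the groups is thus partly built in, and nothing is read from it. F2 stress replicates 12 and 13 had trends of -0.38 and -0.40 and mean deviations of the 7 enzymes of -0.25 each, and F2 no-stress replicate 19 had a trend of 0.27 and a mean deviation of 0.20. F2 no-stress replicates 16 and 17 had trends of 0.61 and 0.44 and mean deviations of the 7 enzymes of 0.43 and 0.53. F2 no-stress replicate 20 had a trend of -0.10 and a mean deviation of 0.47, while F2 no-stress replicate 18 had a trend of 0.48 and a mean deviation of 0.03. Among the F2 stress libraries, replicate 11 had the lowest mean deviation, -0.53, at a trend of -0.30, replicate 14 had 0.07 at a trend of -0.10 and replicate 15 had -0.21 at a trend of 0.21.

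The 7 enzymes also varied together within groups. Over the 20 libraries, centred on the group means, the median pairwise correlation of log2 CPM among the 7 was 0.58 (21 pairs), against 0.19 among all 48 (1128 pairs). It was 0.33 among the 11 enzymes of 55% GC or more, 0.40 among the 10 under 45% and -0.11 between these sets. All pairs share the same libraries and their trends, so these values are descriptions.

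In F1, 0 of the 48 enzymes and 0% of all genes were called between stress and no-stress mice by edgeR, in either direction and also with the GC and length offset. At an unadjusted p below 0.05 stood 1030 genes, 2 of them enzymes, Ep300 (0.21) and Kmt2a (0.32), and DESeq2 called 2 genes, 0 of them enzymes. Of the 8 enzymes grouped as H3K4 methyltransferases 7 had a positive F1 difference, with a median of 0.17 over the 8, none past the test. Negative differences were held by 39.6% of the 48 enzymes and 49.0% of all genes. With the GC and length offset Kmt2a stood at 0.12, Setd1a at 0.10, Kmt2c at 0.06, Kmt2d at 0.06 and Setd1b at 0.01. Kmt2e stood at -0.0008, Kmt2b at -0.004 and Setd7 at -0.09 with it, and Ep300 at 0.09. Without the offset the smallest adjusted p among the enzymes was 0.739. The groups overlapped for all 48 enzymes, while 0.670% of all genes did not overlap in the higher and 0.568% in the lower direction. Dot1l averaged 55.6 ± 10.98 CPM in F1 stress and 46.3 ± 8.82 CPM in F1 no-stress mice, a difference of 0.26 ± 0.20. Kdm6b averaged 22.3 ± 4.49 CPM in F1 stress and 20.1 ± 2.76 CPM in F1 no-stress mice, 0.15 ± 0.13. Ehmt2 averaged 130.1 ± 6.49 CPM in F1 stress and 131 ± 13.2 CPM in F1 no-stress mice, -0.01 ± 0.12 (SD, n = 5 each). Of the 8 enzymes called in F2, Ehmt2 and Suz12 had a negative and the other 6 a positive F1 difference, none past the test, and the Ehmt2 and Suz12 differences turned positive when libraries were scaled by their totals alone.

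The lineage effect differed between the generations for 4 of the 48 enzymes, all with a more negative effect in F2, where 1.68% of all genes were called lower, 0.837% higher and 2.52% in either direction. Dot1l had a difference of lineage effects of -1.18 ± 0.29 (adjusted p = 0.0395), Kmt2d -0.98 ± 0.24 (adjusted p = 0.0394), Kdm6b -0.74 ± 0.19 (adjusted p = 0.0429) and Setd1b -0.55 ± 0.14 (adjusted p = 0.0446). Setd1a (-0.60, adjusted p = 0.0521) and Kmt2b (-0.59, adjusted p = 0.0554) came next. The F2 lineage effect is part of this comparison, so the 2 are not independent. The count was 0 with the GC and length offset (0% of all genes), and also 0 without any of F1 stress replicates 2, 3 and 4, F1 no-stress replicates 7, 8 and 10, F2 stress replicates 11, 12 and 13 or F2 no-stress replicates 16 and 17. It was 2 without F1 no-stress replicate 9 and 8 without F2 stress replicate 14.

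Among mice of the no-stress lineage, Dot1l and Kdm6b were higher in F2 than in F1, where 1.47% of all genes were called higher, 0.532% lower and 2.0% in either direction. Dot1l had 84.4, 100.7, 49.7, 59.4 and 106 CPM in the F2 no-stress mice, against 52.2, 39.1, 34.6, 54.2 and 51.4 CPM in the F1 no-stress mice. The ranges overlapped, with F2 no-stress replicate 18 below the highest F1 no-stress libraries, and the difference was 0.79 ± 0.20 (adjusted p = 0.0488). Kdm6b had 26.8, 31.8, 24.1, 31.2 and 29.1 CPM in the F2 no-stress mice, against 24.8, 18.7, 18.2, 20.3 and 18.5 CPM in the F1 no-stress mice. F1 no-stress replicate 6 lay above F2 no-stress replicate 18, and the difference was 0.51 ± 0.13 (adjusted p = 0.0476). No enzyme had groups without overlap here, against 2.53% of all genes in the higher and 1.99% in the lower direction. Setd1b (0.37, adjusted p = 0.0554) and Suz12 (-0.25, adjusted p = 0.0564) just missed the threshold. The library GC trend was higher by 0.41 in F2 no-stress than in F1 no-stress libraries (exact two-sided permutation test, p = 0.0397, adjusted p = 0.0595). Of the 11 enzymes of 55% GC or more, 0 had a negative difference here, and the median was 0.35. Among all genes of that range 12.7% had a negative difference, and the median was 0.24. The part of this trend in the differences was not tested.

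This comparison shares the F2 no-stress libraries with the F2 lineage comparison. The F2 no-stress mice had the highest mean of the 4 groups for 19 of the 48 enzymes (39.6%) and for 36.2% of all genes. The 19 include the 7 lower enzymes, whose call already places the F2 no-stress mean above the F2 stress mean, so nothing is read from their order. Kmt2d averaged 75.4 ± 16.7 CPM in F2 stress, 119.9 ± 27.9 in F2 no-stress, 99.7 ± 18.6 in F1 stress and 80.6 ± 9.12 in F1 no-stress mice (SD, n = 5 each). Suz12 averaged 46.6 ± 2.03 CPM in F2 stress, 38.5 ± 2.92 in F2 no-stress, 45.04 ± 2.47 in F1 stress and 45.9 ± 3.24 in F1 no-stress mice. The count of 2 became 0 with the GC and length offset (0% of all genes), and 0 without any of F1 no-stress replicates 7, 8, 9 and 10 or F2 no-stress replicates 16 and 17. Without F2 no-stress replicate 19 Dot1l alone was called. Without F2 no-stress replicate 20 neither Dot1l (adjusted p = 0.0812) nor Kdm6b (adjusted p = 0.0622) was called, and Suz12 was called lower (-0.30, adjusted p = 0.0384). The count was 5, all higher, without F2 no-stress replicate 18, and 6, of which Suz12 was lower, without F1 no-stress replicate 6.

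Of 98 other genes of these pathways, which encode partner subunits, further enzymes and readers of the marks, 7 were lower (7.14%, against 5.28% of all genes) and 4 higher (4.08%, against 2.64%) in F2 stress mice, and 0 were called with the GC and length offset. Their median log2 fold change was -0.012. Among the COMPASS partners of the H3K4 methyltransferases, Pagr1a (-0.59), a subunit of the KMT2C and KMT2D complexes, and Cxxc1 (-0.51), the CpG-binding subunit of the SET1 complexes, were lower and Wdr82 (0.31) was higher. Wiz (-0.47), a zinc finger partner of G9a, and Hmg20b (-0.80), a subunit of the CoREST complex, were lower, and Zfp644 (0.22), another zinc finger partner of G9a, was higher. The PRC2 partner Rbbp4 (0.27) was higher. Among the acetyltransferase partners Brpf3 (-0.40) and Trrap (-0.38) were lower and Morf4l1 (0.28) higher, and of the further methyltransferases Kmt5c (-0.91), which trimethylates histone H4 at lysine 20, was lower. In F1, 0 of the 98 were called. The effect differed between generations for 6, with 4 lower (Pagr1a, Wiz, Trrap and Kmt5c; 4.08%, against 1.68% of all genes) and 2 higher (Dpy30 and Rbbp4; 2.04%, against 0.837%). Pagr1a, Wiz and Kmt5c were higher in F2 no-stress than in F1 no-stress mice (3.06%, against 1.47% of all genes). The Y-linked paralogs Kdm5d and Uty had F2 differences of -0.18 and 0.06, neither called.

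Promoters were at hand for 37 of the 48 enzymes from RefSeq on GRCm38.p6, as 250 bases before to 50 after the start. They held a median of 26 CpG dinucleotides, against 7 in all 27025 promoters, which were not limited to genes that passed the filter on low counts. Where a gene had several entries, the first was taken. The letters GGGCGG on either strand, the core of a GC box, stood in 22 of the 37 (59.5%), in 3 of the 4 lower enzymes with an entry and in 35.9% of all promoters. CCAAT on either strand stood in 15 of 37 (40.5%), in 0 of these 4 and in 37.9% of all promoters. The cyclic AMP response element core TGACGTCA stood in 2 of 37, against 1.88% of all promoters. The promoters of the enzyme with the largest difference and of the enzyme called higher are given from chr10:80754953-80755252 and chr11:79992856-79993155, both on the plus strand, with GGGCGG or CCAAT on either strand in capitals. The Dot1l stretch holds 49 CpG dinucleotides and 2 GC boxes, and the Suz12 stretch 41 CpG dinucleotides, 3 GC boxes and 1 CCAAT. These matches describe letters and not binding.
Dot1l: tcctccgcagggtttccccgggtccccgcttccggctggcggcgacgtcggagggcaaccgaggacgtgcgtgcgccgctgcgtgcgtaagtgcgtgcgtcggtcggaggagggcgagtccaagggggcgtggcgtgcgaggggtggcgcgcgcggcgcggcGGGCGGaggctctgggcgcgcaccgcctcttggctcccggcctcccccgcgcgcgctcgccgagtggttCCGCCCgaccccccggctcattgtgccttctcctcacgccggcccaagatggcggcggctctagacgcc
Suz12: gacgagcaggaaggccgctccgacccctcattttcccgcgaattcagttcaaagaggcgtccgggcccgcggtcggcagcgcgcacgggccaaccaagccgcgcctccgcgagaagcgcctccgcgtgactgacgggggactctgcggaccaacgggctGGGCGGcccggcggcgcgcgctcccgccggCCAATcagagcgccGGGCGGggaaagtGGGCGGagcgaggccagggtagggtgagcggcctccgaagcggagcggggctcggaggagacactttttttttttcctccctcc

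The cell type makeup of the punches was read from marker lists. All lists were expressed and no marker was at 0 in all libraries. In F2, 2 of the 42 markers were called, the endothelial genes Tie1 (-0.58) and Cldn5 (-0.49), both lower in F2 stress mice and both of GC-rich transcripts (57.6 and 60.5%), while the markers of neurons, astrocytes, oligodendrocytes and their precursors, microglia, striatal, pallial and central amygdala neurons were not called. Of the 4 endothelial markers 3 had a negative F2 difference, with a median of -0.32 over the 4. The summed endothelial markers ran over 82.3 to 158 CPM in F2 stress and 119 to 144 CPM in F2 no-stress mice. Summed striatal markers ran over 312 to 4052 CPM in F2 stress and 1033 to 3789 CPM in F2 no-stress mice, and summed pallial and basolateral markers over 395 to 1096 CPM in F2 stress and 124 to 1322 CPM in F2 no-stress mice. Summed neuronal markers ran over 2868 to 5235 CPM in F2 stress and 2740 to 4354 CPM in F2 no-stress mice. Among no-stress mice, where Dot1l and Kdm6b were higher in F2, 2 markers were also called higher in F2 than in F1, the oligodendrocyte precursor gene Gpr17 (0.81, adjusted p = 0.0101) and Cldn5 (0.60, adjusted p = 0.0415). The median log2 fold change there was 0.65 over the 3 precursor markers, 1 of which had a negative difference. It was 0.30 over the 4 endothelial markers, with 0 negative. Summed precursor markers ran over 181 to 200.2 CPM in F2 no-stress and 129 to 184 CPM in F1 no-stress mice, and summed endothelial markers over 119 to 144 CPM in F2 no-stress and 94.6 to 121 CPM in F1 no-stress mice. In F1 no marker was called between stress and no-stress mice, and all 7 striatal markers had a negative difference, with a median of -0.83. No marker was called for the difference of lineage effects, where all 7 striatal markers had a positive value, with a median of 0.54. The part of cell type makeup in the differences of the enzymes was not tested.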

How the data were processed

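The deposited values were whole-number counts per Ensembl gene, 1 poly-A stranded library for each of 20 mice, per the labels' protocols. Reads had been aligned with STAR 2.5.3a to GRCm38, per the submitters' processing notes. The counting tool, its strand setting and the step that equalised the totals are not given in the labels or notes used here, so the original depth is not known. No replicates were duplicates (chi-square per gene 6.52 to 68.4 in 40 pairs).

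The counts were tested with edgeR 4.0.16 in R 4.3.3 (robust glmQLFit, TMM, filterByExpr, 1 mean per group) in 4 comparisons. GC content and length were those of the longest GENCODE M21 transcript, known for 16692 genes, and the offset used splines of 5 degrees of freedom. On simulated F2 counts with such trends (16589 genes plain, 16554 with offset), the plain fit called 80 of 100 genes changed 2-fold beside 108 unchanged genes, and the offset fit 72 beside 3. Each called 40 of 100 genes changed 1.5-fold. The simulated trends were of the form that the offset removes, so its few unchanged calls were built in. The changed genes were drawn regardless of GC content, so the simulation cannot show how a change shared by GC-rich genes would fare.

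The enzymes, the partner and marker lists and the tests were chosen with earlier results of these data known. Per-library values are given for enzymes called in any comparison and for that with the smallest F2 p in each role group; Suv39h2 and Kdm4b were added after their values were seen. Alternatives were relative log expression factors, library totals, DESeq2 1.42.0, limma-voom (limma 3.58.1), other filters, 1 surrogate variable (sva 3.50.0), the offset, the compared groups alone, an adjusted p of 0.1 and each library left out. Offsets of GC or length alone and the joint removal of replicates 14 (F2 stress) and 20 (F2 no-stress) were added after the data were seen.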

Additional observations from a re-analysis of the deposited data

Results flagged for a closer look

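For 4 enzymes the stress lineage effect differed between F2 and F1 by the test of that difference in edgeR. The difference of effects was -1.18 for Dot1l (adjusted p = 0.0395), -0.98 for Kmt2d (0.0394), -0.74 for Kdm6b (0.0429) and -0.55 for Setd1b (0.0446). All 4 have GC-rich transcripts, and with the GC and length trends of the libraries entered the differences were -0.75, -0.25, -0.23 and -0.008, none called. The part of the library trends in them was not tested.

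The 11 enzymes with per-library values under the naming rule and the GC trend of the libraries were screened in 4 groups each, and 1 of these 48 groups of 5 held a library far from the others. Suz12 in F2 stress replicate 15 had 43.0 CPM, and the gap to its nearest neighbour was 0.76 of the range of the group, above the critical 0.71. Chance alone would mark about 1 group in 20. The same library had the highest GC trend of the F2 stress libraries, 0.21.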

How the results depend on the processing

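In F2, the count of 8 called enzymes was 6 to 11 under relative log expression factors, library totals, DESeq2, limma-voom, both other filters, 1 surrogate variable, the length trend alone, an adjusted p of 0.1 and without replicates 14 (F2 stress) and 20 (F2 no-stress) together. It was 0 with the GC and length trends, with the GC trend alone and with only the compared groups in the fit, and 0 to 13 with single libraries left out. Over all genes the F2 calls, 1324 in the main fit, ran from 737 without a filter to 2502 at an adjusted p of 0.1. They fell to 8 with the GC and length trends, 1 with the GC trend alone and 0 with only the compared groups. The count of 0 in F1 was 0 under all settings. The 4 enzymes whose effect differed between generations became 2 on library totals, 7 with DESeq2 (1 higher), 0 without a filter and with either offset holding GC, 9 without these 2 libraries (1 higher), 8 at an adjusted p of 0.1 (1 higher) and 0 to 8 with single libraries left out. Over all genes the 421 calls of this comparison became 294 on library totals, 1211 with DESeq2 and 100 without a filter. They became 0 with either offset holding GC, 1643 without the 2 libraries and 1359 at an adjusted p of 0.1. The 2 enzymes higher in F2 no-stress than F1 no-stress mice became 1 with relative log expression factors (Suz12, lower) and limma-voom, 0 on library totals, without a filter, with either offset holding GC and in a fit of the compared groups, 6 with DESeq2 and at an adjusted p of 0.1, 4 with the surrogate variable and with the length trend alone (1 enzyme lower in each of these 4 counts), and 0 to 6 with single libraries left out. Over all genes the 335 calls between the no-stress groups became 322 with relative log expression factors, 300 with limma-voom, 208 on library totals and 61 without a filter. They became 0 with either offset holding GC and in a fit of the compared groups, and 1013 with DESeq2. The cause of these changes was not tested.

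Signs turned as follows, the value with GC and length before that with GC alone. Carm1 had 0.10 and 0.087 in F2, -0.011 and -0.0025 in F1, 0.11 and 0.089 for the difference of effects and -0.15 and -0.13 between generations. Kat2a had 0.11 and 0.10, -0.023 and -0.021, 0.14 and 0.12, and -0.088 and -0.074 in these comparisons, and in F1 -0.00055 without a filter and -0.0040 with length alone. With GC and length, Setd1b had 0.0034 in F2, Kmt2b -0.0037 in F1 and Ehmt2 -0.019 between generations. In F1, library totals gave 0.022 for Ehmt2, 0.0065 for Kdm1a and 0.0076 for Suz12, and the surrogate variable 0.0043 for Ehmt2. Single libraries left out turned F1 signs of Carm1 (-0.0030 to 0.058), Ehmt2 (-0.052 to 0.042), Kat2a (-0.024 to 0.039), Kdm1a (-0.073 to 0.017) and Suz12 (-0.055 to 0.0096).

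No paired analysis was possible because the groups share no replicate number. Suv39h2, Ezh2 and Setdb2 had the lowest levels per kb of the 48 enzymes. The depth of sequencing before the totals were equalised is not known, so its limit on precision was not assessed.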
